A study of Mus musculus with 2 samples.

Results

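The miR-26 family of the mouse is made from 3 hairpin loci, Mir26a-1, Mir26a-2 and Mir26b. The loci were chosen by gene symbol and not by level, and all 3 have a row among the 1973 loci of each count table. Small RNA (under 30 nt) was sequenced from the midbrain of healthy B6NCrl embryos at embryonic day 13.5, with male and female embryos pooled and no treatment or mutation named. The 2 libraries are biological replicates of this single group and carry 1 donor record, so no conditions are compared, and the questions are how much of each locus was counted, what the loci share and how far the replicates differed. The replicates are called replicate 1 and replicate 2.

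A microRNA is cut from a hairpin as a 5p and a 3p arm, and the bases 2 to 8 of the loaded arm, the seed, pair with target messages. Each miR-26 hairpin lies in an intron of a gene for a small phosphatase of the C-terminal domain of RNA polymerase II, Ctdsp1, Ctdsp2 or Ctdspl. These phosphatases act with the repressor REST, which silences neuronal genes outside neurons. In zebrafish, miR-26b is known to repress the message of its own host, ctdsp2, as neurons differentiate.

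The mature 5p arms are shown because they set what the counts can tell apart. The sequences are from RefSeq on GRCm38.p6, which has an entry for 3 of the 3 loci, and the seed is in capitals.
Mir26a-1 5p arm: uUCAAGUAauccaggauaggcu
Mir26a-2 5p arm: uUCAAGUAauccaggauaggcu
Mir26b 5p arm: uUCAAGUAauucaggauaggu
The arms of Mir26a-1 and Mir26a-2 differ at 0 of 22 positions. Mir26b has the substitutions C11U and C21U relative to miR-26a over 21 positions, counted from 1 at the 5′ end, and ends 1 base earlier (21 against 22 nt). The seed is the same in all 3. Among 1738 mature entries of the RefSeq table, only those 3, from 3 genes, carry this seed.

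The 3p arms tell the loci apart, and are printed for that reason, again with bases 2 to 8 in capitals.
Mir26a-1 3p arm: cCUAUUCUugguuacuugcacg
Mir26a-2 3p arm: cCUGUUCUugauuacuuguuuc
Mir26b 3p arm: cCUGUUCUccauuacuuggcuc
Mir26a-1 and Mir26a-2 differ at 6 of 22 positions of the 3p arm, among them A4G within the seed. Mir26a-2 and Mir26b differ at 4 positions (U9C, G10C, U19G and U20C), all outside bases 2 to 8, so these hairpins share both seeds. Mir26a-1 and Mir26b differ at 8 positions.

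The full hairpins place the shared stretch. Capitals mark the longest run that Mir26a-1 and Mir26a-2 have in common and, in Mir26b, its 5p arm.
Mir26a-1 hairpin: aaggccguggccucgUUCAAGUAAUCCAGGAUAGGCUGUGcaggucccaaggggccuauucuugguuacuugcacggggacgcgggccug
Mir26a-2 hairpin: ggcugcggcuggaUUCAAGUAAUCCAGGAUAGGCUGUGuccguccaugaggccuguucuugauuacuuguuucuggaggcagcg
Mir26b hairpin: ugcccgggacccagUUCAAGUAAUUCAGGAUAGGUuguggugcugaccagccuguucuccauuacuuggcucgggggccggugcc
The common run is 25 nt long. It starts at the first base of the 5p arm and goes 3 bases past the end of that arm. The longest run shared with Mir26b is 11 nt for Mir26a-1 and 10 nt for Mir26a-2.

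**Figure D1:**
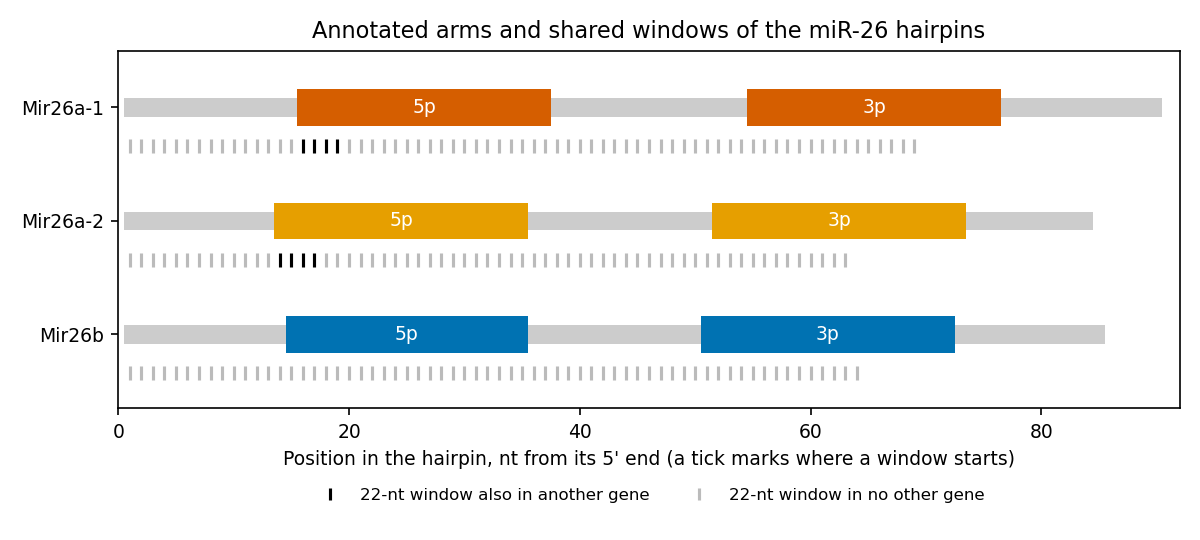
Bars show each hairpin along its length in nt, with the annotated 5p and 3p arms in colour, and ticks mark the first base of every 22-nt window. Black ticks, 4 in Mir26a-1 and 4 in Mir26a-2, are windows also found in another gene, and they start at the beginning of the 5p arm. Mir26b has none.

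Of the 22-nt windows, 4 of 69 in Mir26a-1 and 4 of 63 in Mir26a-2 occurred in the transcript of another gene of the GENCODE annotation, and that gene was the other miR-26a locus. None of the 64 windows of Mir26b did. The search covered annotated transcripts on both strands and not the whole genome. The tables list multimapping reads in a row of their own, apart from every locus, so a read of exactly the miR-26a 5p arm belongs to neither miR-26a row, while reads of either 3p arm, and of either arm of Mir26b, have a single annotated place.

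On mm10, Mir26a-1 (ENSMUSG00000065513.1) lies on chromosome 9 from 119031796 to 119031885, in intron 5 of Ctdspl. Mir26a-2 (ENSMUSG00000065430.1) lies on chromosome 10 from 126995530 to 126995613, in intron 5 of Ctdsp2. Mir26b (ENSMUSG00000065468.1) lies on chromosome 1 from 74394310 to 74394394, in intron 4 of Ctdsp1. All 3 are on the plus strand, which is the strand of the host.

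The hairpin lies between exons of the same lengths in all 3 genes. The exon before the hairpin is 57 nt long in Ctdspl, 57 nt in Ctdsp2 and 57 nt in Ctdsp1, and the exon after it is 93 nt long in each. The introns differ in size, with 3283 nt in Ctdspl, 1946 nt in Ctdsp2 and 564 nt in Ctdsp1. Mir26b starts 234 nt after its exon 4, whereas Mir26a-1 starts 1543 nt and Mir26a-2 1621 nt after exon 5. The last base of Mir26a-2 also overlaps by 1 nt the first exon of 2 of the 4 annotated Ctdsp2 transcripts, and the other hairpins overlap no host exon.

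**Figure D2:**
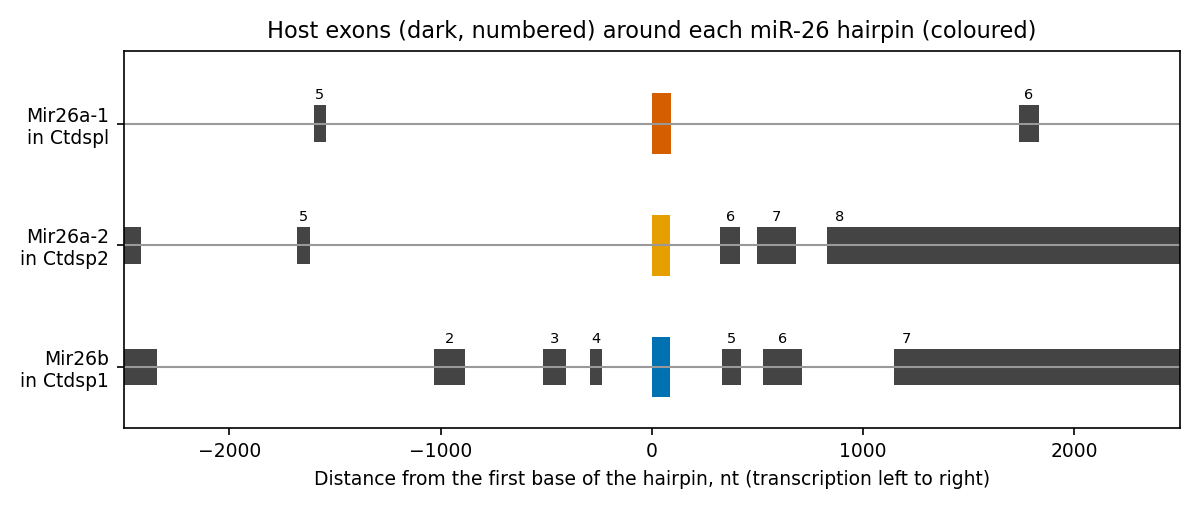
Dark boxes are exons of the coding transcript with the most exons of each host, numbered unless they run past the left edge, and the coloured box is the hairpin, with distance in nt from the first base of the hairpin on the x axis. Each hairpin sits between the exons of 57 and 93 nt, in an intron of 3283 nt (Ctdspl), 1946 nt (Ctdsp2) or 564 nt (Ctdsp1).

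Replicate 1 held 5093743 reads assigned to a locus on its own strand and replicate 2 held 2935841. Values are the count over the library total on the usual CPM scale, and 3 counts correspond to 0.589 CPM in replicate 1 and 1.02 CPM in replicate 2. Reads that map to several places made up 34.4% and 37.7% of all reads. Of the neural marker loci 9 of 10 have a row, all with counts in both libraries, and they held 1.90% and 1.77% of counts. Most of that was Mir137 (9265 and 6397 CPM) and Mir92b (8440 and 9987 CPM), which differed between the libraries in opposite directions. Mir128-1 was the highest of the other neural loci, with 529 and 534 CPM. These are locus counts without reads that map to several places, and not levels of the mature microRNAs. The erythroid list held 0.00934% and 0.00869%, the muscle list 0.00609% and 0.00617%, and the liver marker Mir122 0.00589% and 0.0139%. Of the muscle loci, Mir1a-1 had a count of 0 in each library. Multimapping reads stand apart from these rows too, so that 0 does not show that its mature microRNA was absent.

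Mir26b was among the loci with the most counts in these midbrain libraries, where reads that map to several places are left out. It had 87139 counts in replicate 1 and 61518 in replicate 2, which is 17107 CPM (95% exact Clopper-Pearson interval 16995 to 17220) and 20954 CPM (20791 to 21119). It stood at place 15 in replicate 1 and place 11 in replicate 2. Its mean was 19031 ± 2720 CPM (SD, n = 2), or 1.90% of all counts. The intervals cover counting error within each library only and leave out the spread between libraries. The tables also hold no molecular identifiers, so repeated reads of the same molecule are counted separately.

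The miR-26a loci were counted at far lower levels. Mir26a-2 had 143 counts in replicate 1 and 53 in replicate 2, which is 28.1 CPM (23.7 to 33.1) and 18.1 CPM (13.5 to 23.6). Its mean was 23.1 ± 7.09 CPM (SD, n = 2), at place 276. Mir26a-1 had 37 counts in replicate 1 and 14 in replicate 2, which is 7.26 CPM (5.11 to 10.01) and 4.77 CPM (2.61 to 8.001). Its mean was 6.02 ± 1.76 CPM (SD, n = 2), at place 329.

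The order Mir26b, Mir26a-2, Mir26a-1 was the same in both libraries, and neither neighbouring pair overlapped. Mir26b had 484 times the summed miR-26a counts in replicate 1 and 918 times in replicate 2. Mir26a-2 had 3.86 times the counts of Mir26a-1 in replicate 1 (95% exact interval 2.68 to 5.71) and 3.79 times in replicate 2 (2.07 to 7.39), so the ratio between the miR-26a loci differed between libraries by less than counting error. Divided by hairpin length, the mean level was 224 CPM per nt for Mir26b, 0.275 for Mir26a-2 and 0.0668 for Mir26a-1. The hairpins are 84 to 90 nt long, so this division could not have changed the order.

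**Figure D3:**
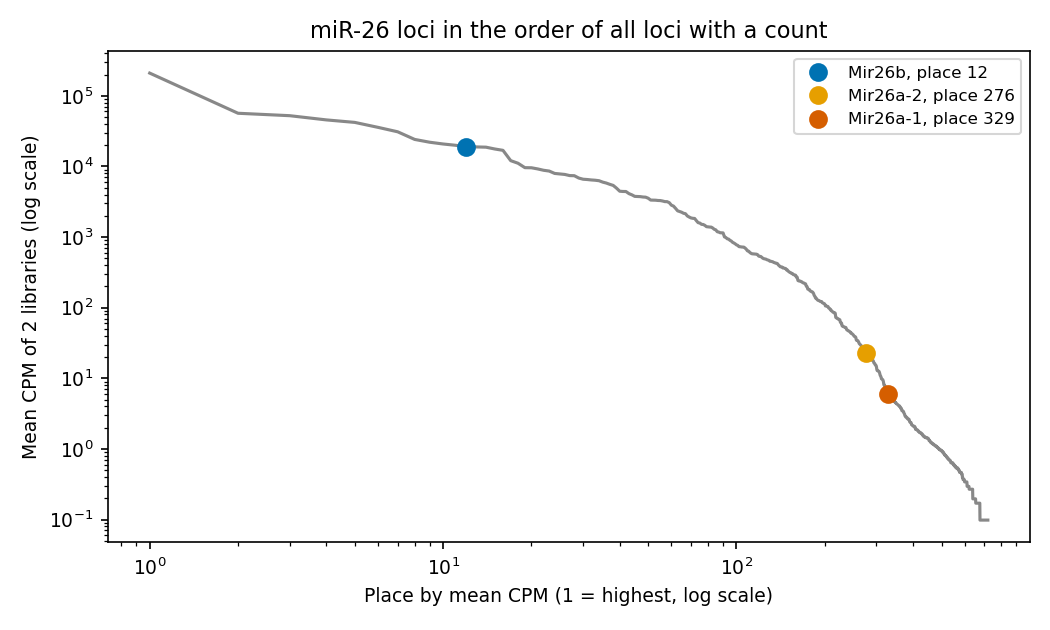
The grey line gives the mean CPM of every locus with a count (y axis, log scale) against its place in the order (x axis, log scale). Mir26b lies at place 12 with 19031 CPM, Mir26a-2 at place 276 with 23.1 CPM and Mir26a-1 at place 329 with 6.02 CPM.

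As a family, the 3 loci held 1.71% of counts in replicate 1 (1.70 to 1.73) and 2.10% in replicate 2 (2.08 to 2.11). Mir26b made up 99.79% of the family counts in replicate 1 (99.76 to 99.82) and 99.89% in replicate 2 (99.86 to 99.92), intervals that did not overlap. This split is one of locus counts and not of the mature microRNAs. The pool of multimapping reads was 43.9 times the Mir26b count in replicate 1 and 42.1 times in replicate 2. Reads of the miR-26a 5p arm amounting to 2.28% of that pool in replicate 1, or 2.37% in replicate 2, would equal the Mir26b count, and the files do not trace the pool back to its loci. Which of miR-26a and miR-26b was the more abundant mature form therefore cannot be told from these counts.

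No read was counted on the strand opposite to any of the 3 hairpins in either library, where 3 counts is the limit that a count of 0 allows (0.589 CPM in replicate 1 and 1.02 CPM in replicate 2). Counting without regard to strand hence left the counts of all 3 loci as they were.

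The family of miR-103 and miR-107 is likewise hosted by introns of paralogous genes, the pantothenate kinases Pank3 (Mir103-1), Pank2 (Mir103-2) and Pank1 (Mir107), enzymes of coenzyme A synthesis. Its 3p arms are printed to set beside miR-26, with the seed in capitals.
Mir103-1 and Mir103-2 3p arm: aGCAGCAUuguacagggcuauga
Mir107 3p arm: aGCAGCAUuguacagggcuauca
Mir107 differs from miR-103 by G22C alone, and shares a 24-nt run with each Mir103 locus, where Mir26b shares at most 11 nt with a miR-26a locus. The families are therefore not alike in the sequence that their single-copy locus shares with the others. Mir107 had 2284 CPM in replicate 1 and 2054 CPM in replicate 2, Mir103-2 had 53.8 and 28.6 CPM, and Mir103-1 had 4.52 and 4.43 CPM. In locus counts, the locus with its own arm thus outnumbered the loci that share one by 484 and 918 times in miR-26 (replicates 1 and 2). In miR-103 and miR-107 it did so by 39.2 and 62.2 times. A read of exactly the shared miR-103 3p arm belongs to neither Mir103 row, as for the miR-26a 5p arm. These ratios are therefore not ratios of the mature microRNAs. How far the families differ in these ratios was not tested.

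Other loci with an identical arm in another locus were not all low. Mir128-1 and Mir128-2, in introns of R3hdm1 and Arpp21, share the 3p arm and stood at 532 ± 3.50 and 364 ± 32.3 CPM (SD, n = 2 each). Mir16-1 and Mir16-2, in Dleu2 and Smc4, share the 5p arm and stood at 2293 ± 61.9 and 305 ± 48.0 CPM. Mir218-1 and Mir218-2, in Slit2 and Slit3, share the 5p arm and stood at 20.8 ± 1.44 and 43.9 ± 4.36 CPM. Counting both sides of the identical arm, the run that the copies share went beyond it by 4 bases in miR-103, 3 in miR-26a, 2 in miR-128, 1 in miR-16 and 1 in miR-218. The part of this overhang in the levels was not tested.

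Across the 858 loci with a RefSeq hairpin and arm, 83 had an arm that also occurs in another hairpin. Their median level was 3.50 CPM, against 0.779 CPM for the 775 loci without one, and 28.9% against 20.1% reached 100 CPM. Both miR-26a loci were above the median of the 83 loci and below 100 CPM. The highest locus with such an arm reached 6842 CPM, and the highest without one 209489 CPM. A locus counts as sharing an arm if any of its arms is copied, and its other arm can be its own. The part of a shared arm in these levels was not tested.

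**Figure D4:**
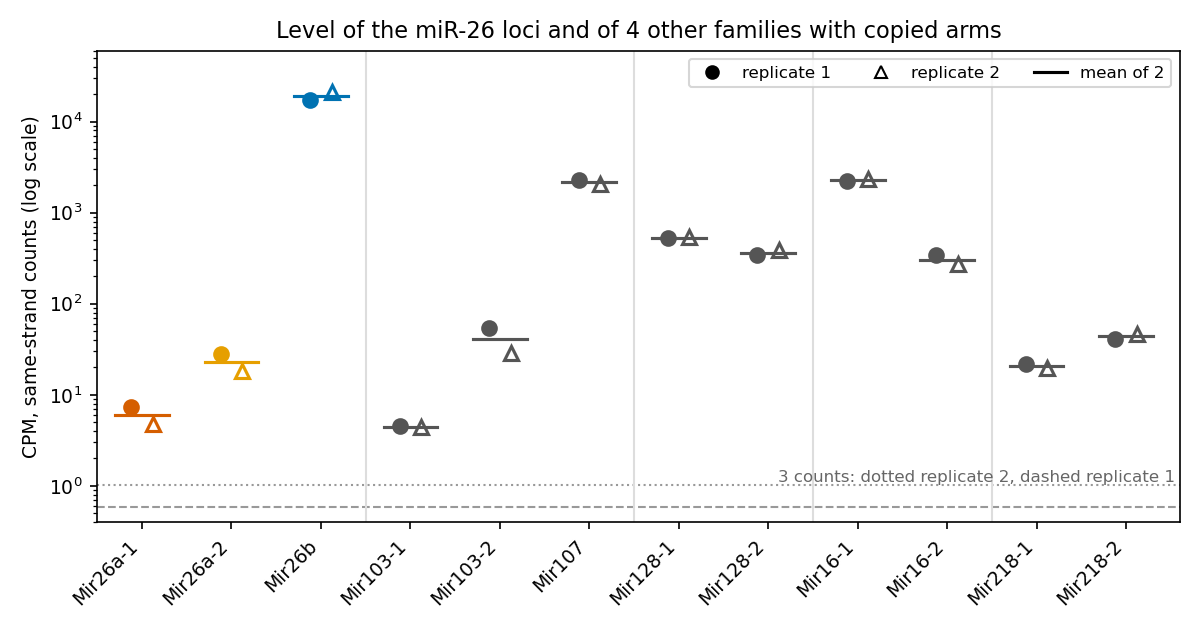
Points give the CPM of each locus in replicate 1 (circles) and replicate 2 (triangles) on a log scale, bars the mean of both, and grey lines the level of 3 counts. Mir26b (19031 CPM) and Mir107 (2169 CPM) stand above the other loci of their families, in counts that leave out reads that map to several places. The miR-128 loci (532 and 364 CPM) and miR-16 loci (2293 and 305 CPM) lie closer together.

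The libraries were compared at each locus with at least 10 counts by an exact binomial test (two-sided, conditional on the summed count), with library sizes scaled by TMM (trimmed mean of M values), with Benjamini-Hochberg adjustment over 466 loci. The test compares 2 libraries, not conditions, and takes in counting error but no spread between animals. It called 177 loci, 38.0% of those tested, with 18.7% higher in replicate 1 and 19.3% higher in replicate 2. All 3 miR-26 loci were tested, and 1 was higher in replicate 1, 1 was higher in replicate 2 and 1 did not pass, in a background where calls of either direction were common. The share of calls that were higher in replicate 1 was 49.2% after TMM scaling, but 61.9% where only the library totals were used.

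Mir26b was 1.28-fold higher in replicate 2, with a log2 ratio of replicate 1 to replicate 2 of -0.36 (adjusted p at most 4.24e-299 by the exact test, the limit at which smaller values were written). Among the 14 other loci within 2-fold of its mean level, this ratio ran from -0.48 to 0.23, with an SD of 0.22, and 12 of them were called. Mir26b thus lay within the range of loci of like level, with 2 of the 14 below it. Mir126a, the endothelial locus at a similar level, was 1.36-fold higher in replicate 2, taking 1.63% of the replicate 1 counts and 2.12% of those of replicate 2. Markers of mural cells and mesenchyme, 5 of 5 with counts in both libraries, summed to 0.528% and 0.696%. Nearly all of it was Mir143 (4991 and 6626 CPM). Mir214 had 229 and 256 CPM and Mir145a had 60.1 and 76.0 CPM. Mir199a-2 had 4.52 and 4.43 CPM and Mir199a-1 had 1 count in each, in counts that leave out reads that map to several places. The choroid plexus markers, 2 of 2, summed to 0.0752% and 0.104%, and the leukocyte markers, 2 of 3 with a row, to 0.0172% and 0.0224%. Of the leukocyte loci, Mir223 had 143.9 and 199.9 CPM, whereas Mir150 had 27.7 and 24.5 CPM. The part of these cells in the difference of Mir26b was not tested.

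The miR-26a loci lay on the other side of 0. Mir26a-2 was 1.47-fold higher in replicate 1 (log2 ratio 0.56, adjusted p = 0.0365 by the exact test). With replicate 1 thinned at random in a single draw to the depth of replicate 2, the log2 ratio was 0.59. The adjusted p by the exact test was then 0.0527, so the call of Mir26a-2 ended in that draw. Of the 64 other loci within 2-fold of its level, 3 had a higher ratio and 61 a lower one. Mir26a-1 had a log2 ratio of 0.50 and did not pass (adjusted p = 0.410), and 12 of the 66 loci of like level had a higher ratio. The share of multimapping reads was 34.4% in replicate 1 and 37.7% in replicate 2, and its part in these differences was not tested.

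**Figure D5:**
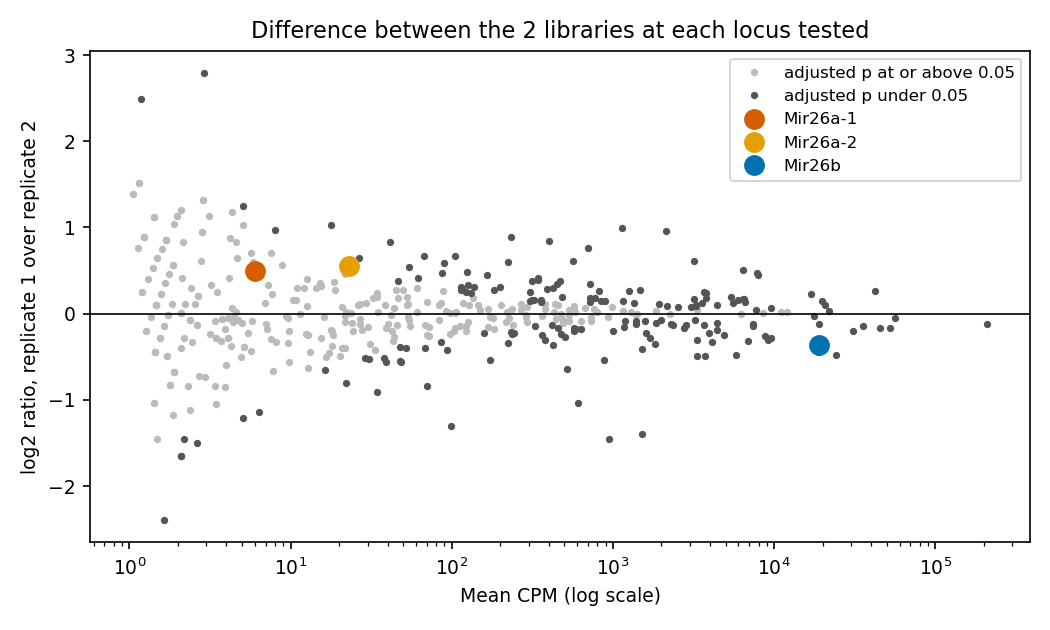
Each dot is 1 of 466 loci, with its mean CPM on the x axis (log scale) and the log2 ratio of replicate 1 over replicate 2 on the y axis, dark where the adjusted p was under 0.05. Mir26b lies at -0.36, Mir26a-2 at 0.56 and Mir26a-1 at 0.50, each inside the cloud of loci of like level.

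Mir103-2 resembled Mir26a-2, with 274 counts in replicate 1 and 84 in replicate 2, and was 1.78-fold higher in replicate 1 (log2 ratio 0.83, adjusted p = 5.07e-06 by the exact test). Mir107, whose log2 ratio was 0.086, was also higher in replicate 1 (adjusted p = 0.000595), unlike Mir26b. Mir103-1 had a log2 ratio of -0.035 and did not pass.

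The loci next to Mir26b in the order of mean level over the 2 libraries were Mir30e (19929 ± 2105 CPM) and Mir93 (20765 ± 1745 CPM) above it, and Mir149 (18860 ± 507 CPM) and Mir126a (18713 ± 3474 CPM) below it (SD, n = 2 each). None of these neighbours differed from Mir26b by more than the SD of Mir26b, so its exact place is not resolved. Next to Mir26a-2 in the order were Mir1968 (23.8 ± 0.835 CPM), Mir3093 (24.1 ± 0.544 CPM), Mir574 (22.2 ± 8.09 CPM) and Mir193b (22.1 ± 0.929 CPM). Beside Mir26a-1 in that order, Mir1945 had the same 37 and 14 counts, Gm26117 (6.39 CPM) and Gm23134 (6.97 CPM) stood next above and Mir297a-2 (5.92 CPM) next below. Likeness here is the place by mean level alone and says nothing of shared control.

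MicroRNAs tied to REST form the other list set beside miR-26, since the Ctdsp phosphatases act with that repressor. Of 18 loci, 17 have a row and 16 were tested, with 2 higher in replicate 1, 1 higher in replicate 2 and 13 that did not pass. The 3 calls are 18.8% of its tested loci, against 38.0% over all loci tested. The median log2 ratio was -0.0062, against -0.0041 over all loci tested. The median level of the 16 tested loci was 85.1 CPM, against 53.0 CPM over all loci tested, and the 17 loci with a row ranged from 0.733 to 11089 CPM. Mir135b led with 11427 CPM in replicate 1 and 10751 CPM in replicate 2, below Mir26b in each library. Mir153 had 3779 and 3311 CPM and was higher in replicate 1 (log2 ratio 0.12, adjusted p = 2.92e-11 by the exact test). Mir139 had 2652 and 2830 CPM and was higher in replicate 2 (log2 ratio -0.16, adjusted p = 1.42e-14), and Mir135a-2, at 388 and 332 CPM, was higher in replicate 1 (log2 ratio 0.16, adjusted p = 0.0145).

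The classical members of the list spread widely in locus counts, which leave out reads that map to several places. As for miR-26a, these are not levels of the mature microRNAs. Mir132, an activity-regulated microRNA of neurons, had 446 and 420 CPM. Mir9-3 had 401 and 353 CPM and Mir9-2 had 1.77 and 2.38 CPM, while the 3 miR-124 loci lay between 1.64 and 9.31 CPM on average. Of the REST-linked loci with a row, 8 reached a mean of 100 CPM, as did Mir26b and neither miR-26a locus.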

How the data were processed

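Small RNA of 2 midbrain libraries was analysed from the deposited tables. Values are raw read counts per gene on mm10 with annotation M4, per the notes deposited with each sample; for the aligner, the trimming and any filter, the method was not given in the sources used here. The 3 unlabelled columns were read, from their sums, as unstranded, same-strand and opposite-strand counts. The 4 summary rows name no gene and stayed out of totals (unmapped reads were 16.1% and 15.7%, unassigned reads 3.79% and 3.80%).

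CPM came from same-strand counts. Symbols and coordinates came from GENCODE M21 (1894 of 1973 IDs matched). edgeR 4.0.16 gave TMM factors, as 1 group allows no contrast. The exact binomial test (scipy 1.17.1, Python 3.11.15, R 4.3.3) ran across all loci with 10 or more counts, threshold 0.05, and ratios used a pseudocount of 0.5 CPM. It was tested on counts simulated with counting error only, which does not cover further spread between libraries. Named loci were the members, the 2 loci next above and 2 next below each in the order of mean CPM and 2 kinds of lists (copied-arm families, REST-linked). Members, lists and marker loci were chosen with earlier results of these data known. Alternatives included DESeq2 1.42.0 size factors.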

Additional observations from a re-analysis of the deposited data

How the results depend on the processing

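The order of the 3 loci and the sign of each log2 ratio were the same under every alternative run. The Mir26b ratio ranged from -0.36 to -0.29, that of Mir26a-2 from 0.47 to 0.62 and that of Mir26a-1 from 0.29 to 0.56. The call of Mir26a-2 ended in the single random draw with replicate 1 thinned (log2 ratio 0.59), which removes counts. Its adjusted p by the exact test ranged from 0.0170 to 0.0527. With multimapping reads in the denominator, a larger total by construction, the levels were 10450 CPM for Mir26b, 12.8 CPM for Mir26a-2 and 3.34 CPM for Mir26a-1, and the family share was 1.05%. Without Mir99a in the denominator, Mir26b stood at 24087 CPM and the family at 2.41%. Leaving out each replicate gave 17107 to 20954 CPM for Mir26b, 18.1 to 28.1 CPM for Mir26a-2, 4.77 to 7.26 CPM for Mir26a-1, 1.71% to 2.10% for the family share and 99.79% to 99.89% for the Mir26b part of it. The number of loci called ranged from 166 to 183. No paired analysis was possible because the series has 1 group. Depth limits the miR-26a loci most, with 14 counts of Mir26a-1 in replicate 2.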
